A study of Oryza sativa with 12 samples.

Results

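The clade A type 2C protein phosphatases (PP2Cs) of rice are described here through 10 gene IDs fixed from gene annotation and not from measured values. Earlier results of these data were known when the IDs were chosen. Of these, 8 were among the 26611 genes that the deposited tables list. The tables of the salt-treated seedlings list 25953 genes and those of the seedlings without salt 25580 genes, and 6 of the 10 PP2C genes were in both. These were Os01g0583100, Os01g0656200 (OsPP2C08), Os01g0846300 (OsPP2C09), Os05g0537400, Os05g0592800 (PP2C53, also OsABIL2) and Os09g0325700 (PP2C68, also OsPP108). Os03g0268600 (OsPP2C30) and Os04g0167900 were listed at 150 mM NaCl only, and Os05g0457200 and Os05g0572700 in neither table. The file descriptions call all 8 listed genes protein phosphatase 2C or 2C-like, and the RefSeq gene table gave names for 5 of them by gene ID.

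RNA was sequenced from roots of 7-day-old rice seedlings in 4 groups of 3 libraries: OE1 at 150 mM NaCl, OE1 at 0 mM NaCl, TNG67 at 150 mM NaCl and TNG67 at 0 mM NaCl, each after 24 hours. Sources differ on the tissue. Roots are named in the sample labels and in the study's results, belowground parts in its RNA-seq methods, and terrestrial parts in the design text. Markers of root and of green tissue are given below. TNG67 is the japonica cultivar Tainung 67, the wild type. OE1 is a single transgenic line in that background in which the 35S promoter, active in most plant cells, drives OsERF106MZ, an ethylene response factor gene. Each replicate was pooled from more than 5 seedlings, so that p-values measure the spread between such pools, and results for OE1 rest on 1 line. All values below are normalized counts (reads divided by the size factor of the library), and they are not compared between genes, since gene length was not taken into account.

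Abscisic acid (ABA) is the hormone that accumulates in plants under drought and salinity. In its absence clade A PP2Cs dephosphorylate SnRK2 kinases of the ABA pathway, a family named SAPK in rice, and hold them inactive. When ABA binds a PYL/RCAR receptor, the complex blocks the phosphatase, the kinase is released and phosphorylates bZIP transcription factors, and ABA-induced genes such as those of dehydrins and LEA proteins are transcribed. In Arabidopsis the transcripts of many clade A PP2Cs are themselves raised by ABA, which makes them both brakes on the pathway and markers of its activity.

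Library totals lay between 16326661 and 22426883 reads. OsERF106MZ (Os08g0537900), the overexpressed gene, stood at 9934 ± 531 in OE1 and 723 ± 54.6 in TNG67 at 150 mM NaCl, and at 9840 ± 615 in OE1 and 876 ± 112 in TNG67 at 0 mM NaCl (SD, n = 3 each). All 4 root markers (RCc3, the silicon transporters Lsi1 and Lsi2, and the phosphate exporter gene OsPHO1;2) were in both tables, with summed levels of 23177 to 27540 in OE1 at 150 mM NaCl, 70901 to 71661 in OE1 at 0 mM NaCl, 15238 to 17827 in TNG67 at 150 mM NaCl and 61240 to 72640 in TNG67 at 0 mM NaCl. Of 4 markers of green tissue, 3 were in both tables (CAB1R, CAB2R and Rubisco activase), and their sums were 124 to 235 in OE1 at 150 mM NaCl, 1617 to 2769 in OE1 at 0 mM NaCl, 102 to 168 in TNG67 at 150 mM NaCl and 4398 to 6188 in TNG67 at 0 mM NaCl. Both marker sums were lower under NaCl in either genotype. Without salt the green tissue sum was lower in OE1 than in TNG67, and under salt the root sum was higher in OE1 than in TNG67. OsPHO1;2 went the other way under salt, at 3020 ± 351 in OE1 and 4576 ± 505 in TNG67.

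The first question was how NaCl changed the PP2C transcripts in each genotype. In TNG67 roots all 6 genes in both tables were higher at 150 mM than at 0 mM NaCl at an adjusted p below 0.05 (limma on log2 values, Benjamini-Hochberg adjustment over 24922 genes), a direction and threshold that 27.4% of all genes met. With the added requirement of a log2 fold change beyond 1, 4 of the 6 were called higher, against 9.53% of all genes. In OE1 roots 5 of the 6 were higher by adjusted p alone, against 19.6% of all genes, and 1 was called with the fold change required, against 6.66%. The median log2 fold change over the 6 genes was 0.77 in OE1 and 1.21 in TNG67, beside 0.01 in OE1 and a value near 0 in TNG67 over all genes. No PP2C gene fell under NaCl in either genotype, while 12280 of 24922 genes in OE1 and 12462 in TNG67 had a fitted change below 0. Because whole tissue, root by the labels, was sequenced, a higher transcript level per cell and a larger share of expressing cells cannot be told apart. The part of the marker changes above in these results was not tested.

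**Figure D1:**
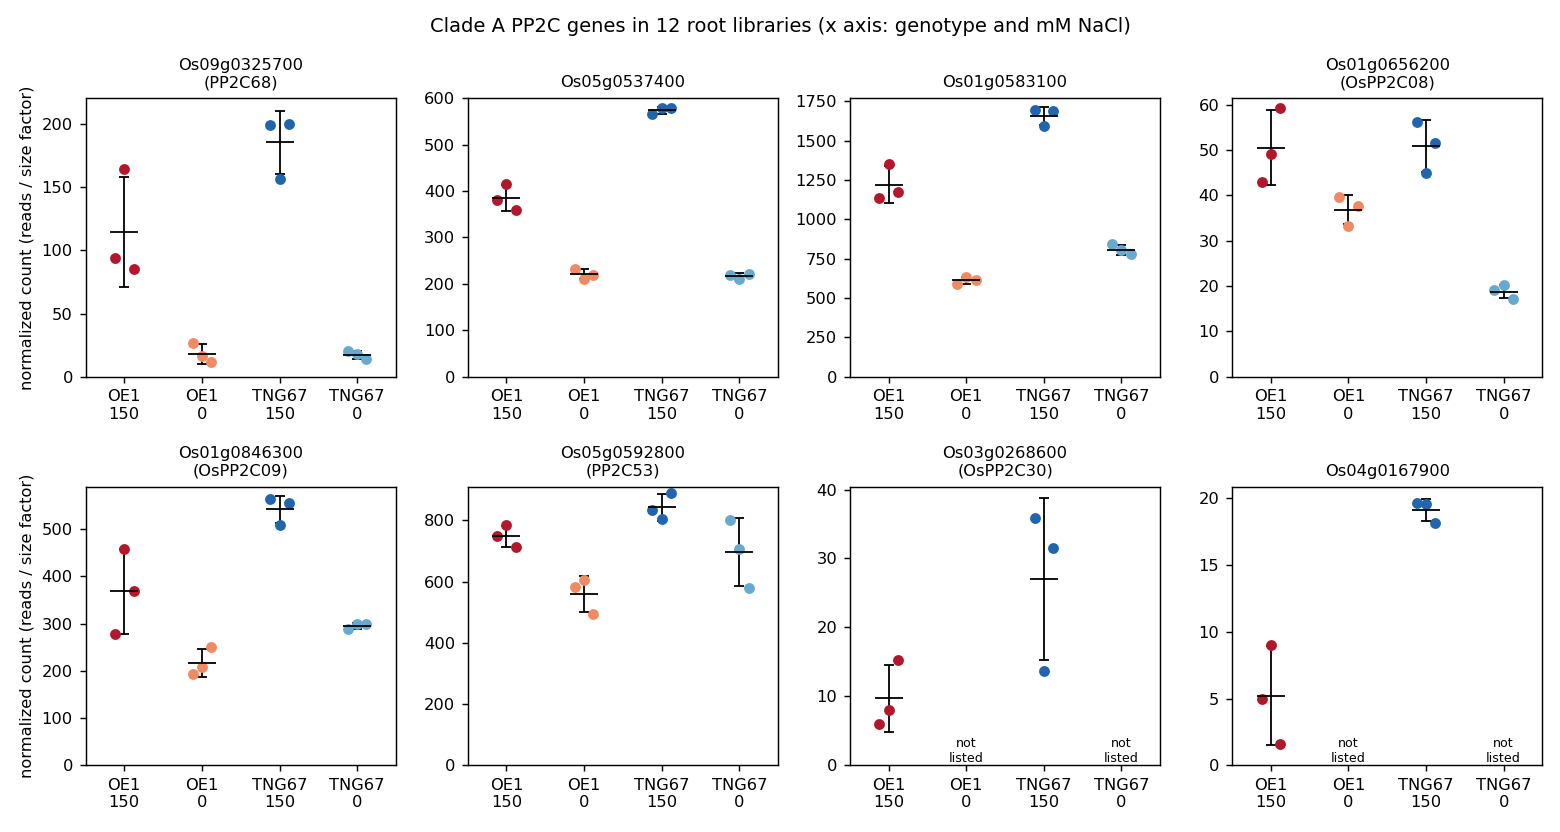
Normalized counts (reads divided by the size factor, linear axis from 0) of the 8 listed clade A PP2C genes in the 3 libraries of each group, with points for libraries and black bars for the mean ± SD. In the panel of Os09g0325700 the TNG67 libraries at 150 mM NaCl sit between 156 and 200 and those at 0 mM NaCl between 13.9 and 20.1, and Os03g0268600 and Os04g0167900 have points at 150 mM NaCl only.

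Os09g0325700 (PP2C68, a phosphatase reported to make Arabidopsis less sensitive to ABA when overexpressed) showed the largest NaCl change of the 6. In OE1 it had 93.9, 165 and 85.0 normalized counts at 150 mM NaCl, against 26.5, 16.2 and 11.5 at 0 mM NaCl. In TNG67 it had 200, 156 and 200 at 150 mM NaCl, against 20.1, 18.0 and 13.9 at 0 mM NaCl. In both genotypes every salt-treated library stood above every library without salt. At 0 mM NaCl the gene was covered by only 11 to 24 reads per library in OE1 and 13 to 18 in TNG67, so the ratios below rest on few reads. The ratio of means was 6.35 in OE1 (log2 fold change 2.62, SE 0.29, limma adjusted p = 7.52e-07) and 10.7 in TNG67 (log2 fold change 3.35, SE 0.29, limma adjusted p = 1.66e-08).

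Os05g0537400 had 380, 416 and 359 normalized counts in OE1 at 150 mM NaCl, against 232, 210 and 220 at 0 mM NaCl. In TNG67 it had 565, 578 and 579 at 150 mM NaCl, against 219, 211 and 221 at 0 mM NaCl. The groups without salt overlapped between the genotypes, and the salt-treated groups stood apart from them and from each other. The change under NaCl was 1.75-fold in OE1 (log2 fold change 0.80, 95% interval 0.61 to 0.98, limma adjusted p = 7.72e-07) and 2.65-fold in TNG67 (log2 fold change 1.40, 95% interval 1.21 to 1.59, limma adjusted p = 2.42e-10).

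Os01g0583100 had 1134, 1354 and 1173 normalized counts in OE1 at 150 mM NaCl, against 588, 634 and 618 at 0 mM NaCl. In TNG67 it had 1694, 1593 and 1689 at 150 mM NaCl, against 841, 806 and 778 at 0 mM NaCl. None of the 4 groups overlapped another, with TNG67 above OE1 at either NaCl level. The NaCl change was close to the fold threshold in both genotypes, at a log2 fold change of 0.99 in OE1 (SE 0.07, limma adjusted p = 3.50e-09) and 1.04 in TNG67 (SE 0.07, limma adjusted p = 8.59e-10). The gene was therefore called in TNG67 and not in OE1, and with scaling by library size alone the gene was called in OE1 and not in TNG67, at 1.01 in OE1 and 0.998 in TNG67.

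Os01g0656200 (OsPP2C08) was covered by 16 to 74 reads per library. It had 43.0, 49.2 and 59.4 normalized counts in OE1 at 150 mM NaCl, against 39.7, 33.3 and 37.6 at 0 mM NaCl. In TNG67 it had 56.3, 44.9 and 51.5 at 150 mM NaCl, against 19.0, 20.1 and 17.2 at 0 mM NaCl. The salt-treated libraries of the genotypes overlapped, while at 0 mM NaCl all OE1 libraries stood above the TNG67 range. The NaCl change was 1.39 on the log2 scale in TNG67 (SE 0.21, limma adjusted p = 2.26e-05), and the change of 0.44 in OE1 did not pass the test (95% interval −0.02 to 0.89, limma adjusted p = 0.122).

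Os01g0846300 (OsPP2C09) had 278, 459 and 368 normalized counts in OE1 at 150 mM NaCl, against 193, 208 and 250 at 0 mM NaCl. In TNG67 it had 563, 510 and 554 at 150 mM NaCl, against 288, 299 and 299 at 0 mM NaCl. Salt-treated and untreated libraries did not overlap within a genotype, but the lowest salt-treated OE1 library lay below the TNG67 libraries at 0 mM NaCl. The gene rose under NaCl by adjusted p alone, with log2 fold changes of 0.74 in OE1 (SE 0.14, limma adjusted p = 0.000403) and 0.87 in TNG67 (SE 0.14, limma adjusted p = 4.48e-05).

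Os05g0592800 (PP2C53, OsABIL2, whose overexpression makes rice less sensitive to ABA) changed least in TNG67. It had 748, 783 and 713 normalized counts in OE1 at 150 mM NaCl, against 582, 607 and 494 at 0 mM NaCl. In TNG67 it had 832, 805 and 890 at 150 mM NaCl, against 801, 705 and 580 at 0 mM NaCl. The gap between the TNG67 groups was narrow, since the highest untreated library nearly reached the lowest salt-treated library. Log2 fold changes were 0.42 in OE1 (SE 0.10, limma adjusted p = 0.00298) and 0.29 in TNG67 (SE 0.10, limma adjusted p = 0.0238). The TNG67 value lost significance without TNG67 150 mM NaCl replicate 3 (0.25, limma adjusted p = 0.0818), without TNG67 0 mM NaCl replicate 3 (0.16, limma adjusted p = 0.164) and with scaling by library size alone (0.25, limma adjusted p = 0.0554).

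The second question was whether the transcripts differed between OE1 and TNG67 at the same NaCl level. At 150 mM NaCl the fitted log2 fold change was below 0 for all 6 genes, against 12633 of all 24922 genes. That of OsPP2C08 was −0.02 and turned to 0.06 with scaling by library size alone. Of the 6, 3 were lower in OE1 by adjusted p alone, against 14.6% of all genes, and none was called with a log2 fold change beyond 1, against 5.93% of all genes in either direction. At an unadjusted p below 0.05 4 of the 6 passed. The share of all genes at that p was not computed, but 6419 of 24922 passed the stricter adjusted p alone in either direction. With the fold change required, edgeR and DESeq2 on the recovered reads also called 0. The median over the 6 genes was −0.51, beside a value near 0 over all genes. The 3 lower genes were Os01g0583100 (1220 ± 117 in OE1 and 1659 ± 57.1 in TNG67, SD, n = 3 each, log2 fold change −0.45, limma adjusted p = 0.000159), Os05g0537400 (385 ± 28.5 in OE1 and 574 ± 7.66 in TNG67, −0.58, limma adjusted p = 9.38e-05) and OsPP2C09 (368 ± 90.5 in OE1 and 542 ± 28.5 in TNG67, −0.59, limma adjusted p = 0.00515). The OE1 libraries of each of these genes all lay under the TNG67 range. The share of all genes without overlap is not given here, for this or any other comparison. An exact permutation test gave each of the 3 genes a two-sided p of 0.1, the smallest that 3 against 3 libraries allow. In the same libraries 3 of the 4 root markers were higher and 1, OsPHO1;2, lower in OE1 by adjusted p alone. RCc3 had the highest log2 fold change, at 1.64 (limma adjusted p = 1.49e-07). The part of these markers in the PP2C differences was not tested.

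The other 3 genes did not pass the test at 150 mM NaCl. PP2C68 averaged 115 ± 43.6 in OE1 and 185 ± 25.2 in TNG67, and OE1 replicate 2, at 165, lay within the TNG67 range (log2 fold change −0.74, 95% interval −1.34 to −0.14, limma adjusted p = 0.0645). Without that library the value was −1.03 (limma adjusted p = 0.0175), and the 12-library fits of DESeq2 (adjusted p = 0.0245) and edgeR (adjusted p = 0.0270) also placed the gene past the p threshold. PP2C53 averaged 748 ± 35.0 in OE1 and 842 ± 43.6 in TNG67 (log2 fold change −0.17, 95% interval −0.39 to 0.04, limma adjusted p = 0.241), although its OE1 libraries all lay under the TNG67 range. OsPP2C08 averaged 50.5 ± 8.28 in OE1 and 50.9 ± 5.70 in TNG67 (log2 fold change −0.02, 95% interval −0.47 to 0.43, limma adjusted p = 0.965).

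At 0 mM NaCl none of the 6 genes was called, against 5.26% of all genes in either direction. At an unadjusted p below 0.05 4 of the 6 passed. The share of all genes at that p was not computed here either, but 5493 of 24922 passed the stricter adjusted p alone in either direction. With the fold change required, edgeR and DESeq2 again called 0. By adjusted p alone 3 were lower in OE1, against 12.5% of all genes, and 1 was higher, against 9.55%. The gene that was higher was OsPP2C08, at 36.9 ± 3.26 in OE1 and 18.8 ± 1.51 in TNG67 (log2 fold change 0.94, SE 0.21, limma adjusted p = 0.00416). Without OE1 0 mM NaCl replicate 2 its value was 1.01, past the fold threshold (limma adjusted p = 0.00768).

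Os01g0583100 was lower in OE1 without salt as well, at 613 ± 23.2 in OE1 and 808 ± 31.5 in TNG67 (log2 fold change −0.40, SE 0.07, limma adjusted p = 0.000637). OsPP2C09 averaged 217 ± 29.7 in OE1 and 295 ± 6.61 in TNG67 (−0.45, limma adjusted p = 0.0289), a result that lost significance without any 1 of the TNG67 0 mM NaCl libraries or without OE1 0 mM NaCl replicate 1 or 2, with limma adjusted p-values between 0.0649 and 0.124. PP2C53 averaged 561 ± 58.9 in OE1 and 696 ± 111 in TNG67 with overlapping groups (−0.30, limma adjusted p = 0.0410). It was not past the threshold in edgeR (adjusted p = 0.0557), with scaling by library size alone, in a fit of the 6 libraries concerned, or without any of OE1 0 mM NaCl replicates 1 and 3, OE1 150 mM NaCl replicate 1, TNG67 0 mM NaCl replicates 1 and 2, and TNG67 150 mM NaCl replicate 1, with values between −0.33 and −0.19. Os05g0537400 averaged 221 ± 10.9 in OE1 and 217 ± 5.38 in TNG67 (0.02, 95% interval −0.16 to 0.21), and PP2C68 18.0 ± 7.68 in OE1 and 17.4 ± 3.15 in TNG67 (−0.01, 95% interval −0.61 to 0.59). The green tissue markers, which had lower sums in OE1 in these same libraries, are given above, and their part in the OE1 differences was not tested.

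**Figure D2:**
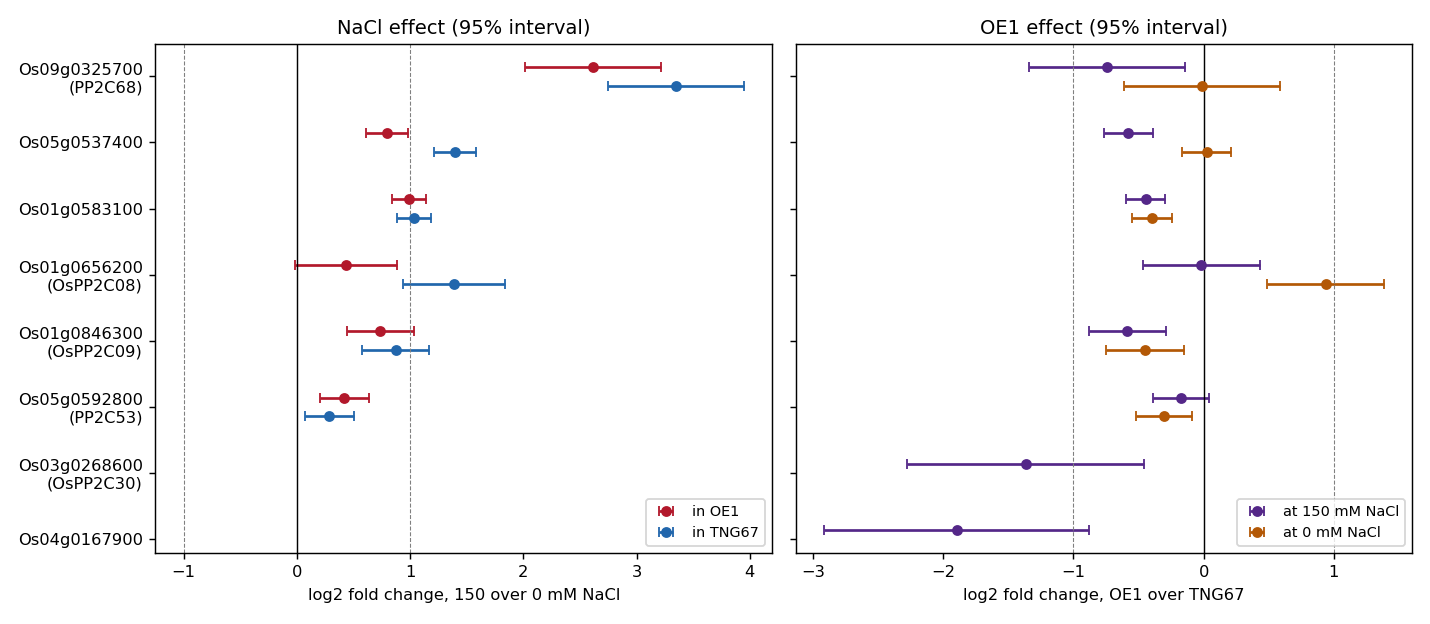
Log2 fold change with its 95% interval (limma) for each clade A PP2C gene, at left for 150 over 0 mM NaCl in OE1 and in TNG67 and at right for OE1 over TNG67 at 150 and at 0 mM NaCl; dashed lines mark −1 and 1. The 4 genes called in TNG67 lie at 1.04 or above in the left panel, and at right OsPP2C08 stands at 0.94 at 0 mM NaCl, where its 95% interval lies above 0. Os03g0268600 and Os04g0167900 appear at right for 150 mM NaCl only. Their values come from a separate limma fit of the 6 libraries at that level.

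The third question was whether the response to NaCl itself differed between the genotypes, which the interaction term of the same fit tests as the log2 fold change in OE1 minus that in TNG67. It passed an adjusted p of 0.05 for 2 of the 6 genes, both with a smaller rise in OE1, against 11.4% of all genes in either direction. For Os05g0537400 the difference was −0.60 (SE 0.13, 95% interval −0.86 to −0.34, limma adjusted p = 0.00551), and it stayed past the threshold in each of 12 fits that left out 1 library (limma adjusted p between 0.00631 and 0.0168). Its levels without salt were alike in the genotypes, so that the difference lay in the salt-treated libraries.

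For OsPP2C08 the difference was −0.95 (SE 0.30, 95% interval −1.59 to −0.32, limma adjusted p = 0.0499), and here the levels of the salt-treated libraries were alike and those without salt differed. This call sat on the threshold and was lost in 11 of the 12 fits that left out 1 library, the exception being the fit without OE1 150 mM NaCl replicate 3, with values between −1.07 and −0.85 and limma adjusted p-values between 0.0472 and 0.119. DESeq2 (adjusted p = 0.0887) and scaling by library size alone (limma adjusted p = 0.0671) also placed it short of the threshold.

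For the other 4 genes the interaction did not pass. The differences were −0.73 for PP2C68 (95% interval −1.58 to 0.12, limma adjusted p = 0.260), −0.14 for OsPP2C09 (95% interval −0.55 to 0.28), −0.05 for Os01g0583100 (95% interval −0.26 to 0.16) and 0.13 for PP2C53 (95% interval −0.17 to 0.44). These intervals leave room for a difference of more than 1 for PP2C68, but not for the other 3.

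Over the 12 libraries the 6 genes did not share 1 order of the groups. In Os01g0583100, Os05g0537400, OsPP2C09 and PP2C68 the mean was highest in TNG67 at 150 mM NaCl and next highest in OE1 at 150 mM NaCl. The neighbouring groups without salt did not differ beyond their spread in Os05g0537400 and PP2C68. PP2C53 had the same top pair, which did not differ by the test although their libraries did not overlap. In Os01g0583100, OsPP2C09 and PP2C53 alike, the mean of TNG67 at 0 mM NaCl came next and that of OE1 at 0 mM NaCl was lowest. In OsPP2C08 the salt-treated groups were level and TNG67 at 0 mM NaCl was lowest. The correlation of each gene with the mean of the other 5 standardized profiles, as a description over 12 libraries that share 4 conditions, was 0.975 for PP2C68, 0.970 for Os05g0537400, 0.968 for Os01g0583100, 0.869 for OsPP2C09, 0.763 for PP2C53 and 0.611 for OsPP2C08.

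The genes listed at 150 mM NaCl only could be compared between the genotypes at that level, in a limma fit of its 6 libraries and 25953 genes that was added once the tables had shown their absence at 0 mM NaCl. Both were called lower in OE1, against 4.12% of the genes in that fit. Neither can be given a NaCl fold change. The lowest mean of any gene listed was 2.51 at 0 mM and 2.38 at 150 mM NaCl, and why these genes, and the 2 in neither table, were not listed was not tested, so they are not shown to be silent.

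Os04g0167900 had 5.0, 9.04 and 1.60 normalized counts in OE1 (5, 9 and 2 reads) and 19.6, 19.5 and 18.1 in TNG67 (23, 20 and 19 reads), with no overlap of the groups. The log2 fold change was −1.90 (SE 0.47, 95% interval −2.91 to −0.88, limma adjusted p = 0.00989), and it stayed called without any 1 library, with values between −2.35 and −1.37. The next ID, Os04g0167875, is described as 2C-like too and was also listed at 150 mM NaCl only, at 32.9 ± 0.876 in OE1 and 86.4 ± 8.03 in TNG67 (log2 fold change −1.36, limma adjusted p = 0.000128). How reads that fit both genes were counted is not given in the sources used here, so the values of Os04g0167900 are uncertain to that extent.

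OsPP2C30 (Os03g0268600), which in rice binds the receptor OsPYL/RCAR5 and the kinase SAPK2, had 6.0, 8.03 and 15.2 normalized counts in OE1 (6, 8 and 19 reads) and 35.8, 13.7 and 31.5 in TNG67 (42, 14 and 33 reads). The highest OE1 library was above the lowest TNG67 library. The log2 fold change was −1.37 (SE 0.42, 95% interval −2.27 to −0.46, limma adjusted p = 0.0305), and the call was lost without OE1 150 mM NaCl replicate 1 or 2 and without TNG67 150 mM NaCl replicate 1 or 3, with values between −1.29 and −1.10 and limma adjusted p-values between 0.0800 and 0.143. An exact permutation test of the 6 values gave a two-sided p of 0.2, and 0.1 is the smallest that 3 against 3 libraries allow.

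The partners of the phosphatases in the pathway were read from lists of receptors, kinases, transcription factors, ABA enzymes and ABA-induced genes. Only 1 receptor gene could be matched by name, Os05g0213500 (OsPYL5, also named RCAR5). It had 864 ± 32.7 in OE1 and 835 ± 49.99 in TNG67 at 150 mM NaCl, and 823 ± 20.6 in OE1 and 663 ± 22.8 in TNG67 at 0 mM NaCl. By adjusted p alone it was higher in OE1 at 0 mM NaCl (log2 fold change 0.31, limma adjusted p = 0.00286) and rose under NaCl in TNG67 (0.33, limma adjusted p = 0.000417).

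The 10 genes of the SAPK kinases were all in both tables, and the descriptions call SAPK8, SAPK9 and SAPK10 ABA-activated. Which of the 10 the phosphatases act on was not tested. Under NaCl 0 were called in OE1 and 2 were called higher in TNG67, against 6.66% of all genes called higher in OE1 and 9.53% in TNG67. Their median log2 fold changes were 0.03 in OE1 and 0.04 in TNG67. By adjusted p alone 4 were higher and 4 lower in OE1, against 19.6% and 19.2% of all genes, and 4 higher and 4 lower in TNG67, against 27.4% and 27.2%. SAPK6, a kinase active under hyperosmotic stress, averaged 872 ± 22.0 at 150 mM and 505 ± 25.6 at 0 mM NaCl in OE1, and 1307 ± 165 at 150 mM and 516 ± 35.4 at 0 mM NaCl in TNG67. Its NaCl change was 0.79 in OE1 and 1.33 in TNG67, and the interaction of −0.55 passed the test (limma adjusted p = 0.00794). SAPK1 was the other kinase called in TNG67, at 1.02 (limma adjusted p = 3.36e-08), with 0.63 in OE1.

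Of 7 group A bZIP genes, the transcription factors that the kinases activate, 1 was called higher under NaCl in OE1, against 6.66% of all genes, and 2 in TNG67, against 9.53%, and the medians were 0.35 in OE1 and 0.92 in TNG67. Os01g0859300, described as acting in stress response and ABA signal transduction, averaged 934 ± 65.0 at 150 mM and 188 ± 19.8 at 0 mM NaCl in OE1, and 553 ± 107 at 150 mM and 189 ± 13.0 at 0 mM NaCl in TNG67. It rose by 2.31 in OE1 (limma adjusted p = 7.41e-11) and by 1.52 in TNG67 (limma adjusted p = 7.54e-09), and the interaction was 0.78 (limma adjusted p = 0.00840), opposite in sign to those of the PP2C genes that passed. Os09g0456200, described as similar to ABI5, had an interaction of −0.70 (limma adjusted p = 0.00237), and Os01g0867300 of −0.48 (limma adjusted p = 0.0128).

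Among 11 genes of ABA synthesis and breakdown, 6 were in both tables. OsABA8ox2, which encodes an ABA-degrading hydroxylase, averaged 192 ± 29.1 at 150 mM and 52.9 ± 3.06 at 0 mM NaCl in OE1, and 263 ± 24.8 at 150 mM and 42.9 ± 4.36 at 0 mM NaCl in TNG67. It was called higher under NaCl in OE1 (1.83, limma adjusted p = 2.17e-08) and in TNG67 (2.59, limma adjusted p = 1.05e-10), with an interaction of −0.76 (limma adjusted p = 0.0296). OsZEP1, an early enzyme of ABA synthesis, rose by 0.72 in OE1 and 1.12 in TNG67, with an interaction of −0.39 (limma adjusted p = 0.0402). OsAO3, an aldehyde oxidase gene of the last step of ABA synthesis, had an interaction of the opposite sign, with 16.6 ± 1.34 at 150 mM and 10.5 ± 1.96 at 0 mM NaCl in OE1, and 14.0 ± 8.86 at 150 mM and 37.9 ± 11.99 at 0 mM NaCl in TNG67 (interaction 2.21, limma adjusted p = 0.0305). It was covered by only 4 to 47 reads per library. TNG67 150 mM NaCl replicate 3 stood at 3.82 (4 reads), beside 18.8 and 19.5 in replicates 1 and 2. How far the OsAO3 interaction rests on that library was not tested.

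**Figure D3:**
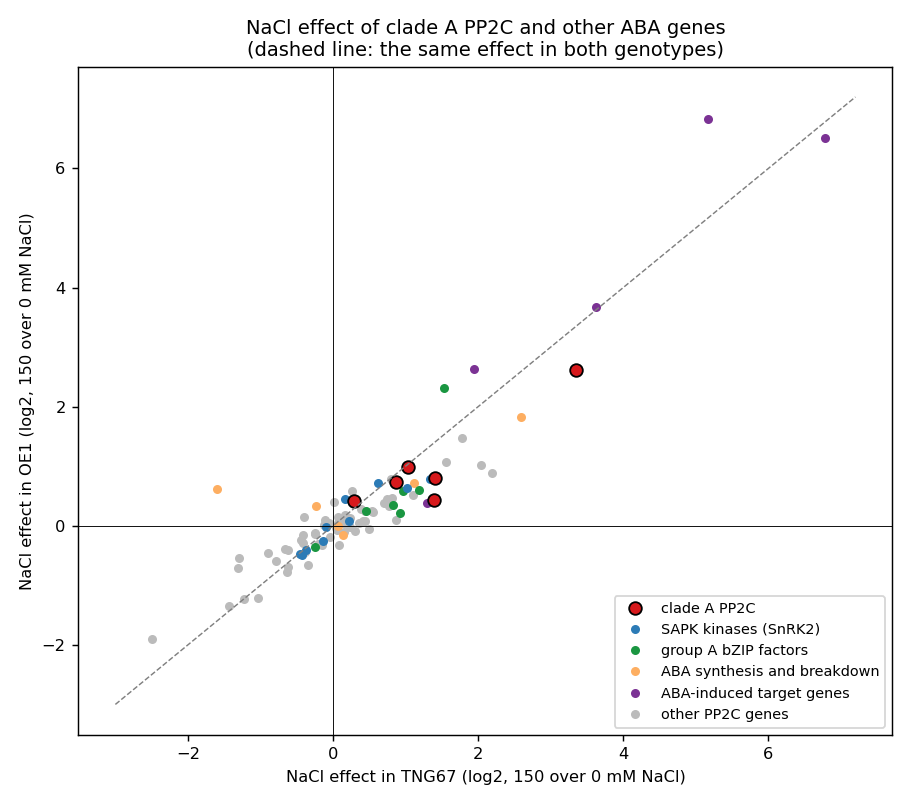
NaCl effect (log2 fold change, 150 over 0 mM NaCl) of each gene in OE1 (vertical axis) against that in TNG67 (horizontal axis), for the 6 clade A PP2C genes in both tables (red, outlined), 4 pathway lists and 60 other PP2C genes; the dashed line marks equal effects. The PP2C genes lie between 0.29 and 3.35 in TNG67 and between 0.42 and 2.62 in OE1. Of the 6, 5 are below the line, and 2 of these passed the interaction test. Among all 24922 genes 12356 had a lower NaCl effect in OE1 than in TNG67. Os01g0583100 is below so narrowly that library-size scaling puts it 0.02 above, and OsPP2C09 turned to 0.053 in 1 fit that left out 1 library.

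Of 7 ABA-induced genes, the far end of the pathway, 5 were in both tables, and Rab16B and Rab16C were listed at 150 mM NaCl only. Of the 5, 4 were called higher under NaCl in OE1, against 6.66% of all genes, and 5 in TNG67, against 9.53%. OsLEA3 (Os05g0542500), a late embryogenesis abundant protein gene, rose in both genotypes, by 3.67 in OE1 (limma adjusted p = 1.29e-14) and 3.63 in TNG67 (limma adjusted p = 5.19e-15). The dehydrin gene Rab16D averaged 1003 ± 406 at 150 mM and 7.81 ± 3.53 at 0 mM NaCl in OE1, and 865 ± 179 at 150 mM and 24.0 ± 9.91 at 0 mM NaCl in TNG67. SalT, a salt-induced lectin gene, was the gene not called in OE1, at 0.38 in OE1 and 1.29 in TNG67. None of the 5 interactions in this list passed the test. Between the genotypes at 150 mM NaCl 0 of the 5 were called, against 5.93% of all genes in either direction. By adjusted p alone 1 was higher and 1 lower in OE1, against 11.2% and 14.6% of all genes.

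Of 60 PP2C genes outside clade A in both tables, 2 were called higher and 4 lower under NaCl in OE1, against 6.66% and 5.84% of all genes, and 6 higher and 6 lower in TNG67, against 9.53% and 9.75%, shares near those of all genes, with medians of 0.02 in OE1 and 0.07 in TNG67. The largest rise among those called in TNG67 was that of Os06g0698300, which averaged 119 ± 11.6 at 150 mM and 63.8 ± 6.42 at 0 mM NaCl in OE1, and 236 ± 10.5 at 150 mM and 51.5 ± 9.72 at 0 mM NaCl in TNG67 (interaction −1.31, limma adjusted p = 0.00142). Between the genotypes 0 of the 60 were called at 150 mM NaCl, against 5.93% of all genes, and 1 at 0 mM NaCl, against 5.26%, and the median at 150 mM NaCl was −0.10, beside −0.51 for the clade A genes. At 150 mM NaCl 22 of the 60 passed by adjusted p alone, 16 lower and 6 higher in OE1, against 14.6% of all genes lower and 11.2% higher.

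**Figure D4:**
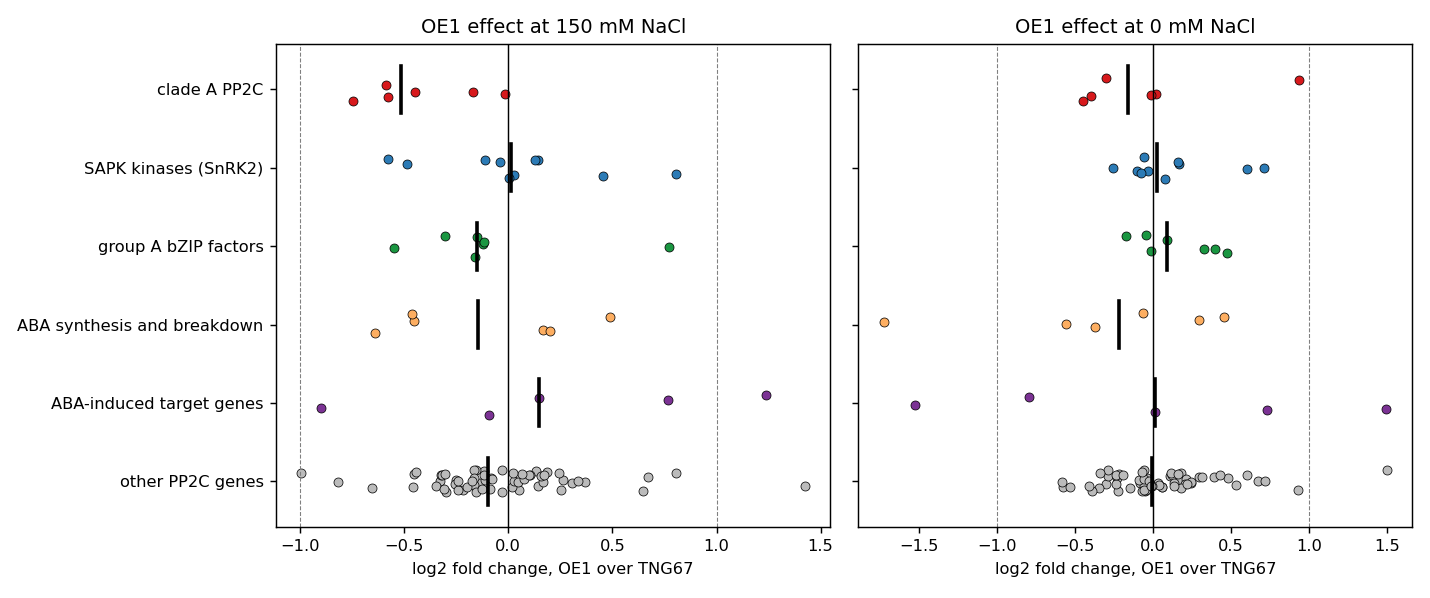
Log2 fold change of OE1 over TNG67 at 150 mM NaCl (left) and at 0 mM NaCl (right), with a point for each gene of the clade A PP2Cs, the 4 pathway lists and the other PP2C genes, and a black bar for the list median. Points are spread vertically for legibility, dashed lines mark −1 and 1, and the clade A median is −0.51 at 150 mM NaCl and −0.16 at 0 mM NaCl.

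Genes outside the lists whose 12 values followed the mean standardized profile of the 6 PP2C genes most closely were Os04g0606800 (Pearson r = 0.995), Os10g0452100 (0.993), Os02g0204700 (CYP734A2, 0.991), Os04g0541700 (Hox22, a homeobox-leucine zipper gene, 0.991) and Os03g0218400, described as similar to a hexose transporter (0.989). These are descriptions over libraries that share 4 conditions. The largest change among them was that of Os03g0218400, which averaged 2826 ± 296 at 150 mM and 648 ± 18.8 at 0 mM NaCl in OE1, and 4970 ± 414 at 150 mM and 807 ± 72.1 at 0 mM NaCl in TNG67. Hox22 averaged 161 ± 34.1 at 150 mM and 69.1 ± 6.13 at 0 mM NaCl in OE1, and 249 ± 24.3 at 150 mM and 66.6 ± 8.43 at 0 mM NaCl in TNG67, the group order seen in Os05g0537400 and PP2C68.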

How the data were processed

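Per the labels and methods, reads were trimmed with Trimmomatic 0.38 and aligned to IRGSP-1.0 with HISAT2 2.1.0; the counting and normalization tools are not given in the sources used here. The authors deposited 1 table per library with normalized values (unit: signal, reads divided by a size factor), and 100% of values were whole multiples of 1 read within 0.001 reads. Median ratios computed over the 12 libraries lay within 0.132% of the size factors, so both NaCl levels were read on 1 scale. The group means in the tables were not used.

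log2(value + 1) of 24922 genes in both tables was fitted with limma 3.58.1 (4 groups, trend and robust) in R 4.3.3. Fold changes on this scale are understated for low genes. Genes were called at a log2 fold change beyond 1 with an adjusted p (Benjamini-Hochberg) below 0.05, interactions at that p alone. Alternatives were edgeR 4.0.16 and DESeq2 1.42.0 on recovered reads, a pseudocount of 0.1, a mean of at least 20, library-size scaling, a replicate block, 6-library fits, and each library left out. The genes and lists were chosen with earlier results of these data known. In each list, up to 4 called genes per comparison with the smallest adjusted p could be named, besides OsAO3, and OsPYL5, SalT and Os04g0167875 were named after their values were seen. Lengths, promoters and proteins of the genes were not analysed here. Names came from a RefSeq gene table (assembly ASM3414082v1), which matched 14105 of 26611 genes.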

Additional observations from a re-analysis of the deposited data

Results flagged for a closer look

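The NaCl response of 2 clade A PP2C genes differed between the genotypes by the interaction term of the limma fit. The log2 fold change in OE1 minus that in TNG67 was −0.60 for Os05g0537400 (limma adjusted p = 0.00551) and −0.95 for OsPP2C08, Os01g0656200 (limma adjusted p = 0.0499). The OsPP2C08 result sat on the threshold and was lost in 11 of 12 fits that left out 1 library, in DESeq2 (adjusted p = 0.0887), with library-size scaling (limma adjusted p = 0.0671) and with a replicate block (limma adjusted p = 0.0738). With 3 libraries in each group, no single library was tested for standing apart from its group.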

How the results depend on the processing

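Over 608 values of single PP2C genes under alternative settings, 556 kept their direction and side of the threshold, 19 lost and 19 gained the call, 13 of the gained calls because the fold threshold was dropped, and 14 changed sign, none of them called. The sign changes were those of PP2C68 for OE1 at 0 mM NaCl (0.047 in DESeq2, 0.061 in edgeR, 0.0076 under library-size scaling, and −0.31 to 0.26 when 1 library was left out), OsPP2C08 for OE1 at 150 mM NaCl (0.065 under library-size scaling, −0.14 to 0.091), Os05g0537400 for OE1 at 0 mM NaCl (−0.014 to 0.057), and the interactions of Os01g0583100 (0.016 under library-size scaling, −0.13 to 0.0016) and OsPP2C09 (−0.31 to 0.053). Of the 6 genes, 4 were called for NaCl in TNG67, with 3 to 6 under other settings and 4 without any 1 library. For NaCl in OE1 1 was called, with 2 under library-size scaling, 5 by adjusted p alone and 1 to 2 when 1 library was left out. For OE1 at 150 mM NaCl 0 were called, with 3 by adjusted p alone and 0 to 1 when 1 library was left out. For OE1 at 0 mM NaCl 0 were called, with 4 by adjusted p alone and 0 to 1 when 1 library was left out. For the interaction 2 were called, with 1 in DESeq2, 1 under library-size scaling and 1 to 2 when 1 library was left out. Over all genes the interaction calls were 1296 higher and 1537 lower, and 1787 higher and 1173 lower under library-size scaling. Beyond the calls gained without the fold threshold, the cause of these changes was not tested. Replicate numbers are shared by the groups, but same-numbered libraries did not deviate together, with correlations between −0.10 and 0.01 and 0 of 12 pairs above 0.1, so the numbers do not pair the libraries. With a replicate block 1 interaction was called in place of 2, since OsPP2C08 had a limma adjusted p of 0.0738, and no other count changed. Depth limits OsPP2C30 and Os04g0167900 most, with 2 to 42 reads in a library.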
